A study of Mus musculus with 6 samples.

Results

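The genes of iron uptake, export and storage were examined in male mouse liver after a regular diet (control, n = 3) or a soy-enriched diet (soy, n = 3). They are the transferrin receptor Tfrc, the iron importer Slc11a2, the iron exporter Slc40a1, the ferritin chains Fth1 and Ftl1, transferrin (Trf), ceruloplasmin (Cp), the ferrireductase Steap3 and the iron regulatory proteins Aco1 and Ireb2. They were measured by the array probes, control spots left out, whose RefSeq accession belongs to 1 of these 10 genes. This gave 20 of the 56605 probes and 10 of the 22911 genes on the array. All mice were 12 weeks old when the diets began. Control mice ate 100% regular chow and soy mice ate 75% regular chow with 25% soy bean, each for 4 weeks, and tissue was taken from the right hepatic lobe. The strain is not given in the sources used here. Each mouse gave 1 one-colour Agilent array, so the p-values below measure the spread between 3 mice per diet. Whole liver RNA mixes several cell types, and in it more cells of a type and more RNA per cell cannot be told apart. The hepatocyte markers Alb, Cps1 and Tat were well above background on all 6 arrays, which fits the label of the tissue.

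Iron travels in blood bound to transferrin, which the transferrin receptor carries into the cell. In the endosome STEAP3 reduces the iron and the divalent metal transporter SLC11A2 (DMT1) moves it into the cytosol. Surplus iron is stored in ferritin, a shell of heavy (FTH1) and light (FTL1) chains, or leaves the cell through ferroportin (SLC40A1), after which ceruloplasmin oxidizes it for loading onto transferrin. When iron is scarce, the iron regulatory proteins (ACO1 and IREB2) bind hairpins called iron-responsive elements. Binding near the end of the Tfrc message, and of the Slc11a2 forms that carry such a hairpin there, protects the message from decay. Binding near the start of the ferritin and ferroportin messages blocks translation and need not move the message level that an array measures.

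Of the 20 probes, 12 were higher and 8 lower in soy livers, and the median change of the 10 genes, each by its brightest probe, was 0.22 on the log2 scale (all genes, -0.0057), and 0.11 without control 2 and 0.14 without soy 3. With limma, 1 probe passed at an adjusted p under 0.05 and a fold change above 1.5 or under 0.66. It was a probe of Tfrc, and it rose. Over all probes 0.35% passed, 0.208% upward. After normalization the groups were apart, with no overlap between diets, for 5 of the 20 probes, all 5 higher and 0 lower in soy. Of all probes 18% were so, 7.75% higher and 10.3% lower in soy. These 5 probes belong to Tfrc (2 probes), Slc11a2, Slc40a1 and Aco1. In the unnormalized median intensities the Slc40a1 and Aco1 probes among them overlapped, and the Tfrc and Slc11a2 probes stayed wholly higher. There both Trf probes, the brighter Ftl1 probe and the Ireb2 probe lay wholly lower in soy. The shares without overlap given here are after normalization. By brightest probes, 4 of 10 genes lay wholly higher in soy, against 9.68% of all genes (20.5% in either direction), and 0.458% of all genes passed. None of the 20 probes was saturated on any array, and 19 were well above background on all 6 arrays. Of all probes that were so, 0.63% passed and 23.8% had no overlap.

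**Figure D1:**
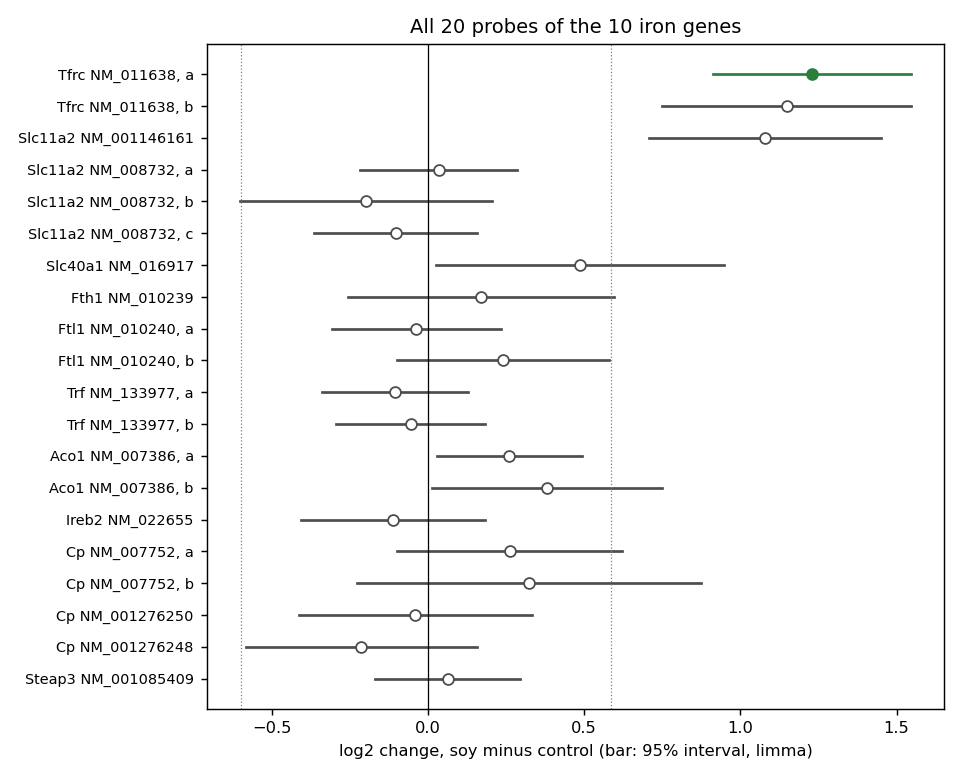
Change of each of the 20 probes on the log2 scale (soy minus control, circles) with its 95% interval from limma (bars); dotted lines mark fold changes of 1.5 and 0.66, the filled circle is the probe that passed, and letters tell probes of 1 transcript apart. The intervals of both Tfrc probes and of Slc11a2 NM_001146161 start at 0.71 or higher, and those of the other 17 probes reach from -0.60 to 0.95.

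Tfrc encodes the receptor that takes transferrin into the cell. Its RefSeq start region on chromosome 16 (GRCm38.p6, plus strand, chr16:32608881-32608910) is shown because Tfrc is the member whose change passed. The letters ACGTG, the core of the hypoxia response element, are in capitals.

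Tfrc: cctcggtaggtgtACGTGcggaaggaagtg

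The capitals cover positions 32608894 to 32608898. Windows of 300 bases around annotated starts (RefSeq, GRCm38.p6) were at hand for 7 of the 10 genes, 13 windows in all. Both Tfrc windows hold this 1 site and the other windows hold neither ACGTG nor its reverse complement CACGT. Over all 32851 windows, 19.6% hold these letters on either strand, so the match is a description of the sequence.

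The brighter Tfrc probe (NM_011638) gave a normalized log2 signal of 9.51, 9.77 and 9.45 in control livers and 10.69, 10.71 and 11.02 in soy livers. Every soy array lay above every control array, with a gap of 0.92 between the groups. The means were 9.58 ± 0.17 and 10.81 ± 0.18 (SD, n = 3), a rise of 1.23 (SE 0.14, 95% interval 0.91 to 1.55, adjusted p = 0.0218, limma), or 2.34-fold. The same separation stood in the scanner's median intensities before any normalization, 877, 898 and 680 in control and 1623, 1432 and 2070 in soy, with a local background of at most 72. The dimmer probe of the same transcript gave 8.32, 8.93 and 8.52 in control and 9.56, 9.77 and 9.87 in soy. Its groups did not overlap either, and its change of 1.15 (SE 0.17, 95% interval 0.75 to 1.55) had an adjusted p of 0.0518 in limma. The changes of both probes differed by 0.08 (95% interval -0.25 to 0.41, adjusted p = 0.933, limma over all probe pairs).

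Slides were shared by some arrays. Slide 1 held both control 1 and control 2 together with soy 1, slide 2 held soy 2 alone, and slide 3 held soy 3 and control 3. Within slide 1 the brighter Tfrc probe was higher in soy by 1.06 and within slide 3 by 1.56 (log2, no test). The direction held in all 17 other settings of the fit and the thresholds were met in 10 of them. With slide as a block the adjusted p was 0.135. With 1 array left out the rise was between 1.12 and 1.33, and the call was kept without control 2 (adjusted p = 0.0435) but lost without control 1 (0.0646), control 3 (0.0501), soy 1 (0.0662), soy 2 (0.0855) or soy 3 (0.0728).

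Slc11a2 encodes DMT1, the proton-coupled importer of ferrous iron, and its message exists with and without an iron-responsive element. The array carries 4 Slc11a2 probes, 1 named for NM_001146161 and 3 for NM_008732. Which accession carries the element is not given in the sources used here. The NM_001146161 probe gave 9.34, 9.72 and 9.64 in control livers and 10.47, 10.55 and 10.93 in soy livers. As with Tfrc, all soy arrays lay above all control arrays, here with a gap of 0.75. The change was 1.08 (SE 0.16, 95% interval 0.71 to 1.45), or 2.11-fold, with an adjusted p of 0.0504 in limma, just outside the threshold. Its unnormalized median intensities were 776, 866 and 774 in control and 1386, 1288 and 1964 in soy. Within slide 1 the difference was 0.94 and within slide 3 it was 1.29 (log2). In 4 of the 17 other settings the probe passed, with an adjusted p as low as 0.00496, and the highest was 0.162.

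The 3 probes of NM_008732 showed no such separation. Probe a gave 9.13, 9.01 and 9.15 in control and 9.10, 9.02 and 9.27 in soy, a change of 0.034 (95% interval -0.22 to 0.29). Probe b gave 9.48, 9.11 and 8.77 in control and 8.95, 8.85 and 8.96 in soy, a change of -0.20 (95% interval -0.60 to 0.21). That change was -0.019 without control 1, -0.37 without control 3 and -0.11 with slide as a block. Probe c gave 7.46, 7.41 and 7.51 in control and 7.54, 7.31 and 7.22 in soy, a change of -0.10 (95% interval -0.36 to 0.16) that was -0.19 without soy 1 and -0.036 without soy 3. In all 3 the groups overlapped, and the highest change that any of the intervals allows is 0.29 (log2), or 1.22-fold. Under a 75th-percentile shift of the arrays probe c turned to 0.052.

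Whether the NM_001146161 probe rose by more than the others was tested on the difference between probes within each array, over 10083 pairs of probes of 1 gene. It exceeded probe a by 1.05 (95% interval 0.67 to 1.43, adjusted p = 0.0928), probe b by 1.28 (0.67 to 1.89, adjusted p = 0.176) and probe c by 1.18 (0.68 to 1.69, adjusted p = 0.132), all from limma. None passed after adjustment, nor did any other pair of the 10 genes, where 0.109% of all pairs passed (8.66% at an unadjusted p under 0.05). Across the 17 other settings the difference to probe a was between 0.91 and 1.17 with an adjusted p between 0.0349 and 0.342. The adjusted p for probe b was between 0.0979 and 0.449, and for probe c between 0.0689 and 0.351.

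**Figure D2:**
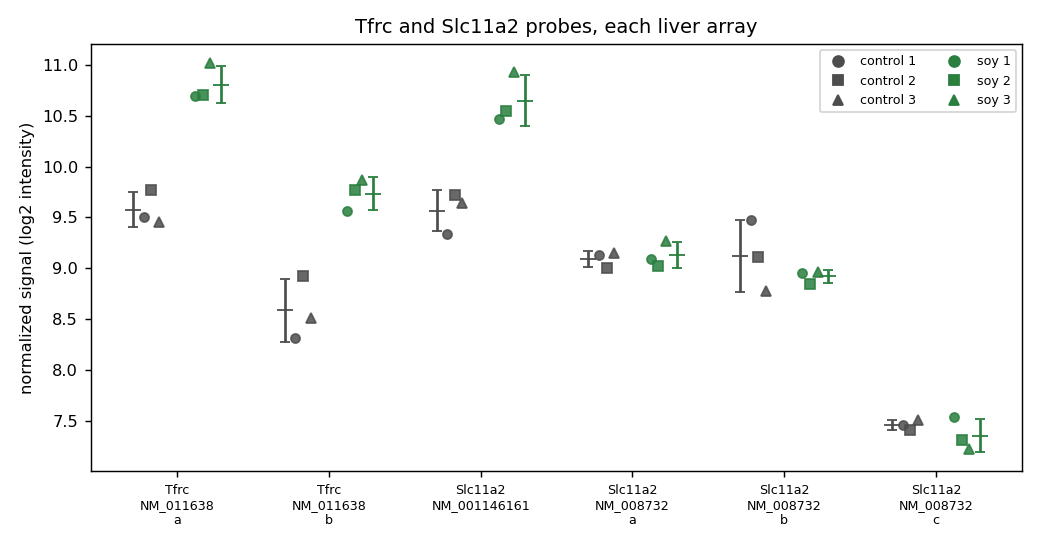
Normalized log2 signal of the Tfrc and Slc11a2 probes on each of the 6 arrays (grey, control; green, soy; symbols give the array number), with the mean and SD of each group (n = 3) at the side. Both Tfrc probes and Slc11a2 NM_001146161 separate the diets, by gaps of 0.92, 0.63 and 0.75, and the 3 probes of Slc11a2 NM_008732 do not.

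The other uptake genes did not pass. Steap3 (NM_001085409), which reduces iron in the endosome, gave 10.27, 10.27 and 10.43 in control and 10.40, 10.45 and 10.31 in soy, a change of 0.064 (SE 0.10, 95% interval -0.17 to 0.30, adjusted p = 0.852, limma). It was between 0.032 (without soy 2) and 0.12 (without control 3) with 1 array left out, and 0.024 with slide as a block. Trf (NM_133977), the plasma iron carrier that hepatocytes secrete, gave 18.63, 18.63 and 18.58 in control and 18.63, 18.40 and 18.51 in soy on its brighter probe. That change was -0.11 (95% interval -0.34 to 0.13, adjusted p = 0.737), and the second probe gave -0.055 (-0.29 to 0.18, adjusted p = 0.879). With 1 array left out the brighter probe was between -0.17 (without soy 1) and -0.050 (without soy 2), and the second between -0.11 (without control 1) and -0.019 (without soy 3). The brighter probe was at -0.036 with slide as a block. In both genes the groups overlapped after normalization. In the unnormalized median intensities both Trf probes lay wholly lower in soy. The brighter gave 425214, 439309 and 407282 in control and 370186, 337391 and 347845 in soy. The second gave 330774, 392910 and 364898 in control and 312342, 318895 and 286306 in soy.

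Slc40a1 (NM_016917) encodes ferroportin, the only known iron exporter of mammalian cells, which in liver is abundant in Kupffer cells, the resident macrophages. It gave 13.40, 13.89 and 13.91 in control and 14.05, 14.02 and 14.58 in soy. The groups did not overlap, but the gap was 0.11, against a range of 0.51 within the controls. The change was 0.49 (SE 0.20, 95% interval 0.024 to 0.95), which did not pass (adjusted p = 0.410, limma). With 1 array left out it was between 0.31 (without soy 3; 0.32 without control 1) and 0.59. In the unnormalized median intensities the groups did overlap, with 13332, 15524 and 14486 in control and 16259, 14003 and 24224 in soy. Within slide 1 the difference was 0.41 and within slide 3 it was 0.67.

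Of 10 Kupffer cell markers 9 were higher and 1 lower in soy, none passing (0.458% of all genes) and none without overlap (20.5%). Their summed signal was 15.29, 15.79 and 15.996 in control and 15.62, 15.88 and 16.19 in soy (log2). As for Slc40a1, control 1 was the lowest array and soy 3 the highest. The marker with the brightest probe on average, Cd5l, a protein secreted by macrophages, gave 13.34, 14.10 and 14.08 in control and 13.97, 14.29 and 14.61 in soy. Marco, a scavenger receptor, was at -0.73 (adjusted p = 0.589, limma), and at -0.20 without control 3 and -0.46 without soy 1. Without control 1, or without soy 3, 4 of the 10 were higher and 6 lower. All 10 markers were well above background on every array. The part of Kupffer cell content in the Slc40a1 values was not tested.

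Ceruloplasmin, the copper oxidase of plasma, had 4 probes. The brighter NM_007752 probe gave 16.33, 16.19 and 16.57 in control and 16.36, 16.70 and 16.81 in soy, a change of 0.26 (95% interval -0.10 to 0.62, adjusted p = 0.581, limma). It was 0.17 without control 2 or without soy 3, 0.39 without soy 1 and 0.16 with slide as a block. Its second probe gave 0.32 (-0.23 to 0.88, adjusted p = 0.656), with 0.17 without control 1, 0.53 without soy 1 and 0.10 without soy 3. The probes of NM_001276250 and NM_001276248 gave -0.040 (adjusted p = 0.948) and -0.21 (adjusted p = 0.663), the latter well above background on 2 of 3 soy arrays. The latter was -0.14 without control 2, -0.061 without soy 2, -0.031 with slide as a block and -0.037 under a 75th-percentile shift. It was -0.46 with the scanner's processed signal at 75th-percentile scaling. All 4 probes overlapped between the diets. The sign of the NM_001276250 probe turned under a 75th-percentile shift, to 0.060.

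The ferritin chains were among the probes whose groups overlapped after normalization. Fth1 (NM_010239), the heavy chain that oxidizes iron, gave 18.30, 17.62 and 17.90 in control and 17.99, 18.04 and 18.31 in soy, a change of 0.17 (SE 0.18, 95% interval -0.26 to 0.60, adjusted p = 0.772, limma). Control 1 lay level with soy 3, the highest soy array, and the control spread of 0.34 (SD) exceeded the change. The change was 0.35 without control 1, 0.010 without control 2 and 0.071 without soy 3. Ftl1 (NM_010240), the light chain that helps nucleate the iron core, gave 18.50, 18.52 and 18.48 in control and 18.54, 18.25 and 18.59 in soy on its brighter probe. The change was -0.037 (95% interval -0.31 to 0.23, adjusted p = 0.932, limma). In the unnormalized median intensities this probe lay wholly lower in soy, with 381263, 413549 and 374521 in control and 336652, 312578 and 365617 in soy. The second Ftl1 probe gave 0.24 (-0.10 to 0.58, adjusted p = 0.588, limma), with 0.15 without control 2 or with slide as a block, and 0.40 without control 3. The sign of the brighter probe turned under cyclic loess, to 0.0028. Ferritin genes have near-identical processed copies in the genome, so the source of these signals is uncertain.

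The iron regulatory proteins had unlike values. Aco1 (NM_007386) encodes IRP1, which is a cytosolic aconitase when it holds an iron-sulfur cluster and binds iron-responsive elements when it does not. Its brighter probe gave 14.54, 14.65 and 14.71 in control and 14.93, 14.80 and 14.95 in soy. The groups did not overlap, with a gap of 0.09, and the change of 0.26 (SE 0.10, 95% interval 0.029 to 0.49) did not pass (adjusted p = 0.378, limma). Its unnormalized median intensities overlapped, with 29605, 27189 and 24606 in control and 29820, 24170 and 31870 in soy. Its second probe changed by 0.38 (95% interval 0.012 to 0.75, adjusted p = 0.419), or by 0.23 without control 1, with overlap between soy 2 at 8.997 and control 2 at 9.013. Ireb2 (NM_022655) encodes IRP2, which is degraded when iron is plentiful. It gave 12.01, 12.37 and 12.39 in control and 12.12, 12.11 and 12.20 in soy, a change of -0.11 (95% interval -0.41 to 0.18, adjusted p = 0.786), with the soy arrays inside the control range. That change was -0.24 without control 1, -0.055 without control 2 and -0.046 without control 3. The unnormalized median intensities of Ireb2 lay wholly lower in soy, with 5104, 5438 and 5085 in control and 4287, 3733 and 4708 in soy.

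**Figure D3:**
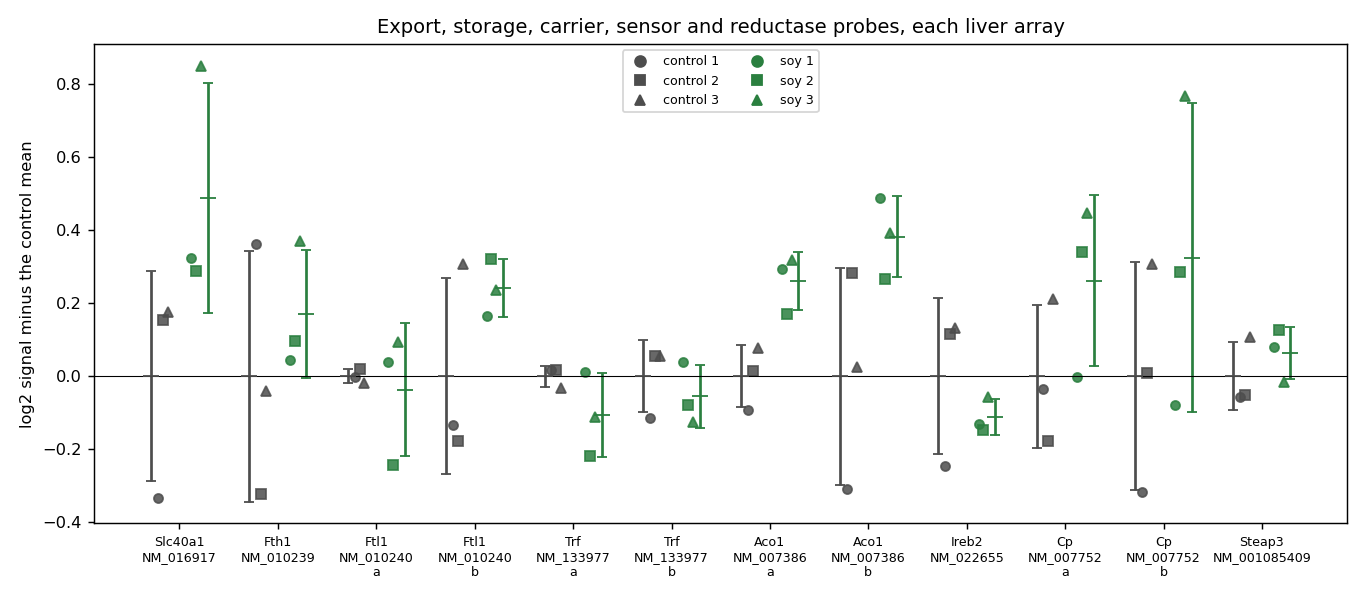
Log2 signal of the export, storage, carrier, sensor and reductase probes on each of the 6 arrays, as the difference from that probe's control mean (grey, control; green, soy; symbols give the array number), with the mean and SD of each group (n = 3). Slc40a1 and the first Aco1 probe are the ones without overlap, by gaps of 0.11 and 0.09, and both Cp probes shown are those of NM_007752.

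Other genes that bring iron or heme into cells or release it were taken as a list of 19, by brightest probe. Of these 8 were higher and 11 lower in soy, a balance that went from 6 and 13 without control 2 to 11 and 8 without soy 1. It was 10 and 9 with the processed signal at 75th-percentile scaling, with cyclic loess and without control 1. Past the thresholds was 1 of the 19, Slc39a14 (NM_001135151), where 0.458% of all genes passed. Slc39a14, also called ZIP14, is the importer through which hepatocytes take up iron that is not bound to transferrin. It gave 13.88, 13.70 and 13.69 in control and 12.93, 12.81 and 13.07 in soy, and fell by 0.81 on the log2 scale (SE 0.11, adjusted p = 0.0405, limma). All soy arrays were lower than all control arrays, and the fall was seen within slide 1 (-0.85) and within slide 3 (-0.61). The call was lost with any 1 array left out, with adjusted p between 0.0761 (without control 3) and 0.139 (without soy 2), with offset 16 in the background correction (0.10), with the replicate block (0.0990) and with slide as a block (0.184). In these livers the importer of free iron was lower while the brighter probe of the receptor for bound iron was higher.

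The 2 largest changes on that list did not pass. Scara5, a ferritin receptor, gave 10.79, 10.82 and 9.66 in control and 9.13, 8.81 and 8.73 in soy, a change of -1.53 (adjusted p = 0.104, limma). Control 3 lay nearer to the soy arrays than the other controls did, and without it the probe passed (adjusted p = 0.0175). Slc48a1, a heme transporter of endosomes and lysosomes, gave 12.30, 11.82 and 11.97 in control and 12.76, 13.03 and 13.15 in soy, a change of 0.95 (adjusted p = 0.0681). Its groups did not overlap, and it passed in 3 of the 17 other settings. Haptoglobin (Hp), with the brightest probe of the list on average, changed by -0.01 with overlap. Hephl1 and Ltf had the mark for well above background on 0 of the 6 arrays, and Steap1 was marked so on 2 control arrays alone.

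Genes of intracellular iron handling and of IRP control, 17 in all, were 11 higher and 6 lower, none past the thresholds in limma and 3 at an unadjusted p under 0.05 (14.2% of all genes). The largest change was in Slc25a37, mitoferrin-1, which carries iron into mitochondria. It gave 11.84, 12.004 and 11.90 in control and 12.54, 12.41 and 12.45 in soy, a change of 0.55 without overlap (adjusted p = 0.0769, limma). Pcbp2, an iron chaperone, changed by -0.38 (adjusted p = 0.286), also without overlap. Pcbp1, whose probe was the brightest of the list on average, encodes a chaperone that delivers iron to ferritin. It changed by 0.08 (adjusted p = 0.825, limma) with overlap, and by 0.036 without control 2, 0.16 without soy 1 and 0.027 without soy 2. Ftmt, the mitochondrial ferritin, had the mark for well above background on 0 of the 6 arrays.

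Of 4 other messages known to carry an iron-responsive element, 2 were higher and 2 lower and none passed. Epas1 (HIF-2alpha), with the brightest probe of them on average, changed by -0.37 (adjusted p = 0.395, limma), and by -0.24 with slide as a block. Cdc14a changed by 0.32 (adjusted p = 0.410, limma). Both were without overlap, as were 20.5% of all genes. Cdc42bpa changed by -0.14 with overlap. Alas2, the heme synthesis enzyme of red cell precursors, gave 13.96, 11.43 and 13.94 in control and 13.71, 13.58 and 13.29 in soy. Control 2 stood far below the other arrays, and the change of 0.42 became -0.42 without it.

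Tfrc is also a known target of the hypoxia-inducible factors, and 13 other targets were read beside it. They were 4 higher and 9 lower, with a median of -0.094. Past the thresholds was 1, downward, where 0.458% of all genes passed. The groups did not overlap for 2 higher and 2 lower genes, where 20.5% of all genes had no overlap. Without control 1 the 13 targets were 7 higher and 6 lower. The glucose transporter Slc2a1 (0.51, adjusted p = 0.202, limma) and Ankrd37 (0.35, adjusted p = 0.350) were higher without overlap, and the heme oxygenase Hmox1 (-0.34, adjusted p = 0.388) was lower without overlap. Pfkfb3, which makes the glycolytic activator fructose 2,6-bisphosphate, gave 12.50, 12.34 and 12.39 in control and 9.73, 9.20 and 9.80 in soy. It fell by 2.83 on the log2 scale (SE 0.17, adjusted p = 0.00298, limma) and passed in all 17 other settings. These values are of the brighter of 2 Pfkfb3 probes, and the other did not pass in the main fit. P4ha1, a collagen prolyl hydroxylase, changed by -0.74 with overlap (adjusted p = 0.412, limma), and by -0.37 without control 1. Bnip3, with the brightest probe of the list on average, changed by -0.06.

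**Figure D4:**
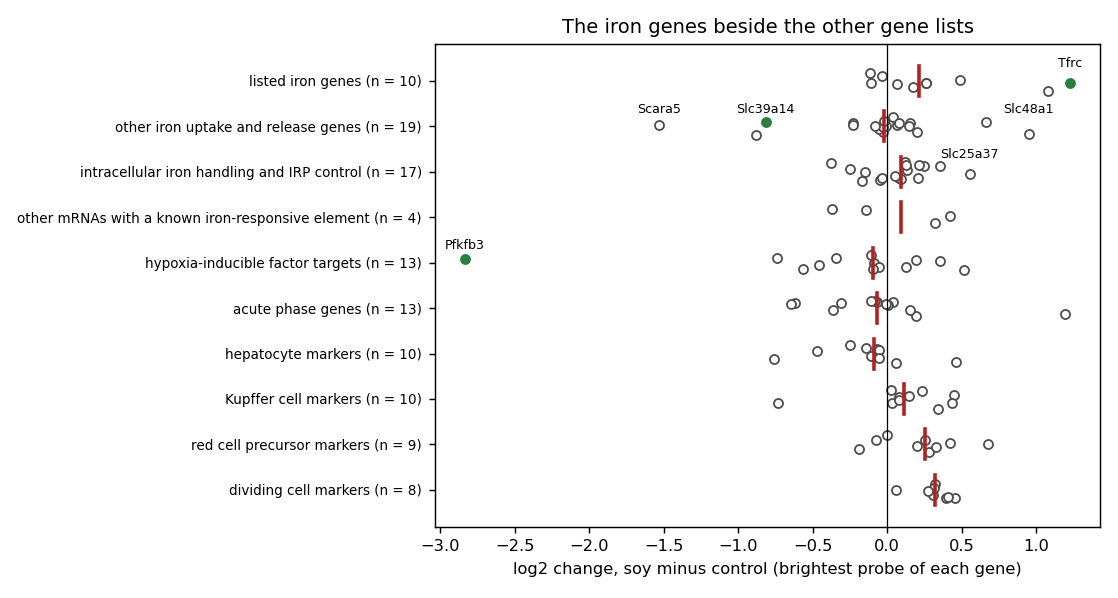
Log2 change (soy minus control) of the brightest probe of each gene in the iron list and in 9 other lists; each circle is a gene, filled green where it passed, the red bar is the list's median, and the height within a row is random. The 3 filled genes are Tfrc (1.23), Slc39a14 (-0.81) and Pfkfb3 (-2.83), and the list medians lie between -0.094 and 0.32.

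Markers of other cells in which Tfrc is abundant were set beside its rise. Of 11 genes listed for red cell precursors 9 were on the array, 7 higher and 2 lower. None of the 9 passed (0.458% of all genes) and none was without overlap (20.5%). Their summed signal was 18.52, 18.07 and 18.66 in control and 18.19, 19.40 and 18.50 in soy (log2). Without soy 2, 3 of the 9 were higher and 6 lower. Soy 2 was the highest array and soy 1 and soy 3 lay within the control range. Hba-a1 (alpha globin), with the brightest probe on average, gave 17.21, 16.88 and 17.32 in control and 16.91, 18.04 and 17.23 in soy. Hbb-b2 changed by 0.68 (adjusted p = 0.657, limma). The Hbb-b2 value was 0.18 without soy 2, 0.30 without control 2, 1.09 without control 3 and 0.056 with slide as a block. Of the 9 markers 8 were well above background on all 6 arrays, Alas2 and the transcription factor Klf1 among them, and Epb42 was so on 0 of 6. The part of red cell precursors in the rise of Tfrc was not tested.

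All 8 markers of dividing cells were higher in soy, also under each other scaling, 4 of them without overlap (9.68% of all genes lay wholly higher in soy) and none passing. Without control 3, or without soy 3, 7 of the 8 were higher. Their median change was 0.32, and their summed signal was 12.67, 12.65 and 12.58 in control and 12.61, 12.73 and 12.95 in soy. Cdk1, the mitotic kinase, changed most, by 0.46 (adjusted p = 0.184, limma), and was well above background on 2 of 3 arrays in each group. With the scanner's processed signal at 75th-percentile scaling, Cdk1 changed by 1.35 and passed (adjusted p = 0.00190, limma). Mcm5, a helicase subunit, changed by 0.41 (adjusted p = 0.493, limma), or by 0.19 without soy 3. Pcna, with the brightest probe of the list on average, changed by 0.06 with overlap. The part of dividing cells in the rise of Tfrc was not tested. Of the 10 hepatocyte markers 2 were higher and 8 lower, none passing, with Alb at -0.14 (-0.041 without soy 3), Cps1 at -0.47 without overlap (adjusted p = 0.178) and Tat at -0.76 (adjusted p = 0.324). Without control 3, Tat was at -1.08 and passed (adjusted p = 0.0499). Apob was at 0.46 with overlap (adjusted p = 0.380). With cyclic loess, or without soy 3, 4 of the 10 were higher and 6 lower.

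The arrays themselves also differed with diet. The probes well above background numbered 34383, 33740 and 35521 in control and 28701, 29375 and 29881 in soy, so all soy arrays had fewer. The part of this difference in the changes was not tested.

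The genes whose profile over the 6 arrays was most like that of the brighter Tfrc probe were found among 13497 genes well above background on all arrays, by Pearson's r. With 6 arrays in 2 diets, such an r largely states that both genes differ by diet. The 5 highest were Vmac (0.994), Serpina3f (0.994), a serine protease inhibitor of the Serpina3 family, Cdc14b (0.993), a phosphatase, Gss (0.993), glutathione synthetase, and Thy1 (0.991), a cell surface glycoprotein. In all 5 the soy arrays lay above the controls, and Serpina3f passed with 1.78 (SE 0.14, adjusted p = 0.00991, limma), a call lost with slide as a block (0.0937). Among the iron genes Slc11a2 stood highest, at rank 23 (r = 0.980), before Aco1 at rank 528 (0.896) and Slc40a1 at rank 1307 (0.795). Cp followed at 0.582, Fth1 at 0.327 and Steap3 at 0.259, and Ftl1 (-0.053), Ireb2 (-0.316) and Trf (-0.587) were negative.

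The hepcidins, of which Hamp makes the hormone that removes ferroportin from the cell surface, were read beside Slc40a1. Hamp gave 16.93, 16.89 and 16.12 in control and 17.25, 15.98 and 15.98 in soy, with overlap (adjusted p = 0.847, limma), and Hamp2 gave 13.93, 15.20 and 12.33 in control and 8.68, 10.13 and 7.52 in soy, a change of -5.04 without overlap (adjusted p = 0.0617). Hamp2 passed in 5 of the 17 other settings, whose adjusted p lay between 0.00202 and 0.171.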

How the data were processed

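The authors hybridized RNA of each liver to a 1-colour Agilent array and deposited the scanner output. Per the file headers it was made with Feature Extraction 11.5.1.1 and holds, for every spot, a median intensity and the local background's median, neither of them normalized, a processed intensity, and marks for spots well above background, saturated or outlying. They also deposited a log2 table whose arrays share their quantiles (medians 7.33 to 7.34), with the steps not stated. For the iron genes it differed from the values used here by 0.066 at most. Median intensities were background corrected by normexp (offset 50), control spots were removed, and quantile normalization and a log2 transform followed. Spots marked as outliers were dropped, and a probe's remaining spots were averaged. Each of 56605 probes was tested with limma 3.58.1 (lmFit, eBayes) in R 4.3.3, adjusted by Benjamini-Hochberg over all probes. Pairs of probes of a gene were tested with limma on their difference within each array. An exact permutation test of 3 against 3 cannot go below p = 0.1 and was not used. The fits were tested on simulated data. Python 3.11.15, pandas 2.3.3 and matplotlib 3.10.9 made the tables and plots.

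Gene symbols, starts and sequence came from RefSeq (GRCm38.p6) through accessions. The array's own annotation uses a different build, and probe positions are therefore not printed. The members and the 9 other gene lists (100 genes, 98 on the array) were chosen with earlier results of these data known, so no list was tested. Of the genes first placed on these lists 2 are not reported here, for a reason that did not depend on their values, and 7 of the 9 lists, those of Kupffer cell, hepatocyte and dividing cell markers among them, are whole. Named were all member probes, and of each list the genes that passed, the 2 largest changes and the gene with the brightest probe on average. Both hepcidins and the 5 genes most like Tfrc were named besides. Hephl1, Ltf, Steap1, Ftmt, Epb42, Klf1, Slc2a1, Ankrd37, Hmox1, Apob, Cdc14a and Cdc42bpa were named after their values were seen. Where a listed gene had more than 1 probe, its brightest stands for it. The alternatives were 18 in number: no background correction, offset 16, the processed intensity, a 75th-percentile shift, cyclic loess, a filter on dim probes, outliers kept, trend and robust eBayes, replicate or slide as a block, the deposited log2 table, adjusted p alone, and each of the 6 arrays left out. The alternative with the processed intensity also scaled the arrays at the 75th percentile, so it changed signal and scaling together.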

Additional observations from a re-analysis of the deposited data

How the results depend on the processing

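The higher values of both Tfrc probes and of Slc11a2 NM_001146161 kept their direction in every alternative tried, but the calls did not. The count of iron gene probes past the thresholds went from 1 to 3 with the 75th-percentile shift and the filter on dim probes. It was also 3 with trend and robust settings, and with the processed intensity, where signal and 75th-percentile scaling changed together. The count went to 0 with the replicate block and with slide as a block, and to between 0 and 2 with 1 array left out. Those 3 were both Tfrc probes and Slc11a2 NM_001146161. Over all probes the count of 198 became 77 with offset 16, and 13138 with the processed intensity at 75th-percentile scaling (11924 higher, 1214 lower). It became 299 with the 75th-percentile shift (202 higher, 97 lower) and 497 with the filter (282 higher, 215 lower). With the replicate block it was 78, with slide as a block 25, and with 1 array left out 25 to 203. Of pairs of probes 11 passed, but 2 with offset 16, 402 with the processed intensity at 75th-percentile scaling, 18 with the 75th-percentile shift and 31 with the filter. With slide as a block 5 passed, and 2 to 8 with 1 array left out. Of the pairs of the iron genes 0 passed, but 1 with the processed intensity at 75th-percentile scaling and 1 with the filter. The cause was not tested. The processed intensity at 75th-percentile scaling moved the median of all probes to 0.125, from -0.010, and the 75th-percentile shift moved it to 0.134. Over probes well above background on all arrays these medians were -0.0029 and 0.022, against -0.012 in the main fit. The median change of the iron genes, 0.22, was 0.11 without control 2 and 0.14 without soy 3, and 0.18 to 0.24 in the other fits. Within slide 1 and slide 3, an alternative chosen after seeing the data, it was 0.118 and 0.238. Over 27282 probes, the deviations of same-numbered arrays from their group means had r = 0.116, -0.0574 and 0.106. Other pairs of a control and a soy array had r between -0.202 and 0.105. Deviations from means of 3 arrays constrain one another, so these values cannot settle whether the numbers pair the samples. With the replicate block the brighter Tfrc probe had an adjusted p of 0.0702 in limma.

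Some signs turned. With the processed intensity at 75th-percentile scaling they did for Cp NM_001276250 (0.026), Hp (0.020) and Alb (0.0076). With the 75th-percentile shift they did for Slc11a2 probe c (0.052) and Cp NM_001276250 (0.060). With cyclic loess they did for the brighter Ftl1 probe (0.0028), Hp (0.034) and Alb (0.033). With slide as a block they did for the brighter Ftl1 probe (0.065), Cp NM_001276250 (0.055), Bnip3 (0.086), Hba-a1 (-0.12) and Hamp (0.13). With 1 array left out the range crossed 0 for Slc11a2 probe a (-0.037 without soy 3 to 0.090), the brighter Ftl1 probe (-0.10 to 0.067 without soy 2), Cp NM_001276250 (-0.18 to 0.050 without control 1), Hp (-0.15 to 0.087 without soy 1), Alas2 (-0.42 without control 2 to 0.85), Bnip3 (-0.29 to 0.12 without soy 3), Saa2 (-1.72 to 0.49 without soy 1), Hba-a1 (-0.068 without soy 2 to 0.50) and Pcna (-0.028 without soy 3 to 0.14). The number of arrays, 3 per diet, limits the precision of each value, and dim probes such as Cp NM_001276248 are limited by their signal over background.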

Other observations

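Acute phase genes, which include the plasma binders of hemoglobin and heme, were also read. Of 13 such genes 5 were higher and 8 lower in soy, and none passed. Without soy 1, 11 of the 13 were higher, and without control 2, without soy 3 or with slide as a block 2 were. Saa2, a serum amyloid A, gave 16.59, 17.26 and 16.52 in control and 13.89, 16.25 and 18.30 in soy, so that soy 1 was the lowest array, soy 3 the highest, and the soy range exceeded the change. Its change of -0.64 (adjusted p = 0.841, limma) became 0.49 without soy 1. Saa3 gave 11.77, 11.56 and 10.89 in control and 11.66, 12.57 and 13.57 in soy, a change of 1.20 (adjusted p = 0.372) that was 0.71 without soy 3, again the highest array. Haptoglobin, with the brightest probe of them on average, gave 18.45, 18.41 and 18.45 in control and 18.23, 18.70 and 18.35 in soy. Soy 3 was also the highest array for Tfrc, Slc11a2 NM_001146161 and Slc40a1, and the part of the acute phase in their values was not tested.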
